A study of Mus musculus with 12 samples.

Results

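The CXC and CX3C chemokines of fibroblasts are 10 genes here: Cxcl1, Cxcl2, Cxcl5, Cxcl9, Cxcl10, Cxcl12, Cxcl13, Cxcl14, Cxcl16 and Cx3cl1. They were taken by name from the 18193 genes measured, and each was read from its brightest probe set by mean over all 12 arrays, among those annotated with that symbol alone. All 10 were measured. RNA came from fibroblasts sorted by the GFP of a PDGFRα-H2B-eGFP allele from back skin of 7-week-old male mice, and all 3 groups carried this reporter. The groups were wild-type skin (normal), skin of InvEE mice (inflamed) and tumour-associated skin of InvEE mice (tumour-associated), with 4 arrays each. The InvEE transgene drives an activated MEK1 kinase from the involucrin promoter, which acts in differentiating keratinocytes and not in fibroblasts. Nothing in the labels ties the 4 arrays to different animals. The p-values therefore cover the spread among these samples alone, and that spread may be technical.

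Chemokines are small secreted proteins that guide leukocytes through G protein-coupled receptors, and the CXC and CX3C families are named for the spacing of their first cysteines. Cxcl1, Cxcl2 and Cxcl5 bind Cxcr2 and recruit neutrophils, Cxcl9 and Cxcl10 bind Cxcr3 and are induced by interferon, Cxcl12 binds Cxcr4, and Cxcl13 binds Cxcr5 on B cells. Cxcl16 and Cx3cl1 are made as membrane proteins and shed by proteases. Skin fibroblasts are a known source of several of these, Cxcl12 among them.

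RefSeq promoters (mouse build GRCm38.p6) were at hand for 8 of the 10 members, all but Cxcl5 and Cxcl16. In the RefSeq gene order Cxcl1 and Cxcl2 are direct neighbours on chromosome 5, and Cxcl9 and Cxcl10 lie on either side of Art3 on the same chromosome. The 220 bases before the annotated start are printed for 4 members: the neighbours Cxcl1 and Cxcl2, Cxcl10 as an interferon-induced gene, and Cxcl14 as the member with the largest difference that did not pass the test. Capitals mark matches to the NF-kappaB consensus motif or to the interferon-response core GAAANNGAAA, on either strand.
Cxcl1, chr5:90891025-90891244, plus strand: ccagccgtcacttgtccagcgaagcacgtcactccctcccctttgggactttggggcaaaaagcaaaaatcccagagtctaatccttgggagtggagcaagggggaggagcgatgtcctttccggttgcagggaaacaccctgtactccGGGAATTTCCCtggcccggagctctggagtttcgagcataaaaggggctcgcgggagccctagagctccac
Cxcl2, chr5:90903679-90903898, plus strand: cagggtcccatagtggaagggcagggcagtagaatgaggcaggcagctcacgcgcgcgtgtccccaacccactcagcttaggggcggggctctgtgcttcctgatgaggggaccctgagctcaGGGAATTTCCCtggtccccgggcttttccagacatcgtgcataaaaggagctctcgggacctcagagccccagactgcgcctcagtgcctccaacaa
Cxcl10, chr5:92348890-92349109, minus strand: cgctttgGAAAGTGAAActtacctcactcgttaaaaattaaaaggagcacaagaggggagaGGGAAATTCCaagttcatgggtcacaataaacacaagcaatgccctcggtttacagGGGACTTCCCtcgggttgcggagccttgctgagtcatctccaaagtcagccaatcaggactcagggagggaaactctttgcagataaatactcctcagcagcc
Cxcl14, chr13:56296552-56296771, minus strand: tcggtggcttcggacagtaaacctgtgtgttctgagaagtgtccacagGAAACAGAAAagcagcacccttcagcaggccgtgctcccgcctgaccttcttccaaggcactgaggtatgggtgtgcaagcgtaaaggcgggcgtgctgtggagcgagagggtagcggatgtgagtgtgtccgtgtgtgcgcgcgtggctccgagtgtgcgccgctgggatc
In Cxcl1 and in Cxcl2 the capitals are the same letters, where GGGAATTTCC on the plus strand overlaps a match on the other strand. The plus-strand match lay 71 to 62 bases before the start in Cxcl1 and 97 to 88 bases before it in Cxcl2. GGGAATTTCC was chosen because it is the match found in Cxcl1, so its presence there was fixed in advance. It stood in the 250 bases before the start in 28 of 32851 RefSeq promoters (0.0852%). The NF-kappaB consensus was found in 3 of the 8 members (Cxcl1, Cxcl2 and, with 2 matches, Cxcl10) and in 3.9% of all promoters. GAAANNGAAA was found in 2 of the 8 (Cxcl10 and Cxcl14) and in 2.98% of all. Cxcl9, also interferon-induced, and Cxcl12, Cxcl13 and Cx3cl1 had neither match, and their promoters are not printed. These are matches of letters and were not tested as binding sites.

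Fibroblast markers were high in all groups. The log2 mean over 6 of them was 12.95 to 13.156 in normal, 12.82 to 13.10 in inflamed and 13.159 to 13.42 in tumour-associated arrays. Pdgfra was called higher in tumour-associated than in normal skin (0.93 ± 0.25, limma adjusted p = 0.0349), a call lost in 7 of 12 fits without an array. Pdpn was called higher than in inflamed skin in all 12, at 1.00 to 1.23. The other markers were not called in any comparison. The poly-A spike controls were lower in inflamed than in normal arrays, with a difference of -2.39 (exact two-sided permutation p = 0.0286, the smallest that 4 against 4 allow; adjusted p = 0.0571 over 6 tests). They were higher in tumour-associated than in inflamed arrays by 2.84, with the same p values. The difference between 3′ and 5′ Gapdh probe sets, a measure of RNA integrity, was 0.96 higher in tumour-associated than in normal arrays, again with these p values. The highest value of each group was that of array 4 of normal skin (2.28), array 3 of inflamed skin (3.37) and array 4 of tumour-associated skin (3.76). The Gapdh difference was 1.59 to 2.28 in normal and 2.29 to 3.76 in tumour-associated arrays, with no overlap. The spike level was 7.76 to 8.60 in inflamed arrays and at least 9.24 in all others. Fits with these covariates therefore compare such groups at a level that their arrays do not share, and cannot separate covariate from group there. In bulk samples, fewer cells that make a transcript and less of it per cell cannot be told apart.

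Against normal skin, 0 of the 10 chemokines passed limma's test in inflamed skin (adjusted p under 0.05 over all genes), where 0.533% of all genes did. One member, Cxcl1, had an unadjusted p under 0.05, against 15.6% of all genes. Against normal skin, 1 of 10, Cxcl5, was called in tumour-associated skin and it was higher, where 9.65% of all genes were called, 4.85% were called higher and 4.8% lower. Between tumour-associated and inflamed skin, 1 of 10, again Cxcl5, was called and higher, where 6.71% of all genes were called, 3.67% were called higher and 3.04% lower. The median difference of the members was 0.11 in inflamed against normal skin, 0.99 in tumour-associated against normal skin and 0.63 between tumour-associated and inflamed skin, on the log2 scale. Over all genes the medians were -0.09, 0.04 and 0.12. Of the members, 8, 8 and 7 had positive differences. The comparisons share arrays, so these counts are not independent of each other.

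**Figure D1:**
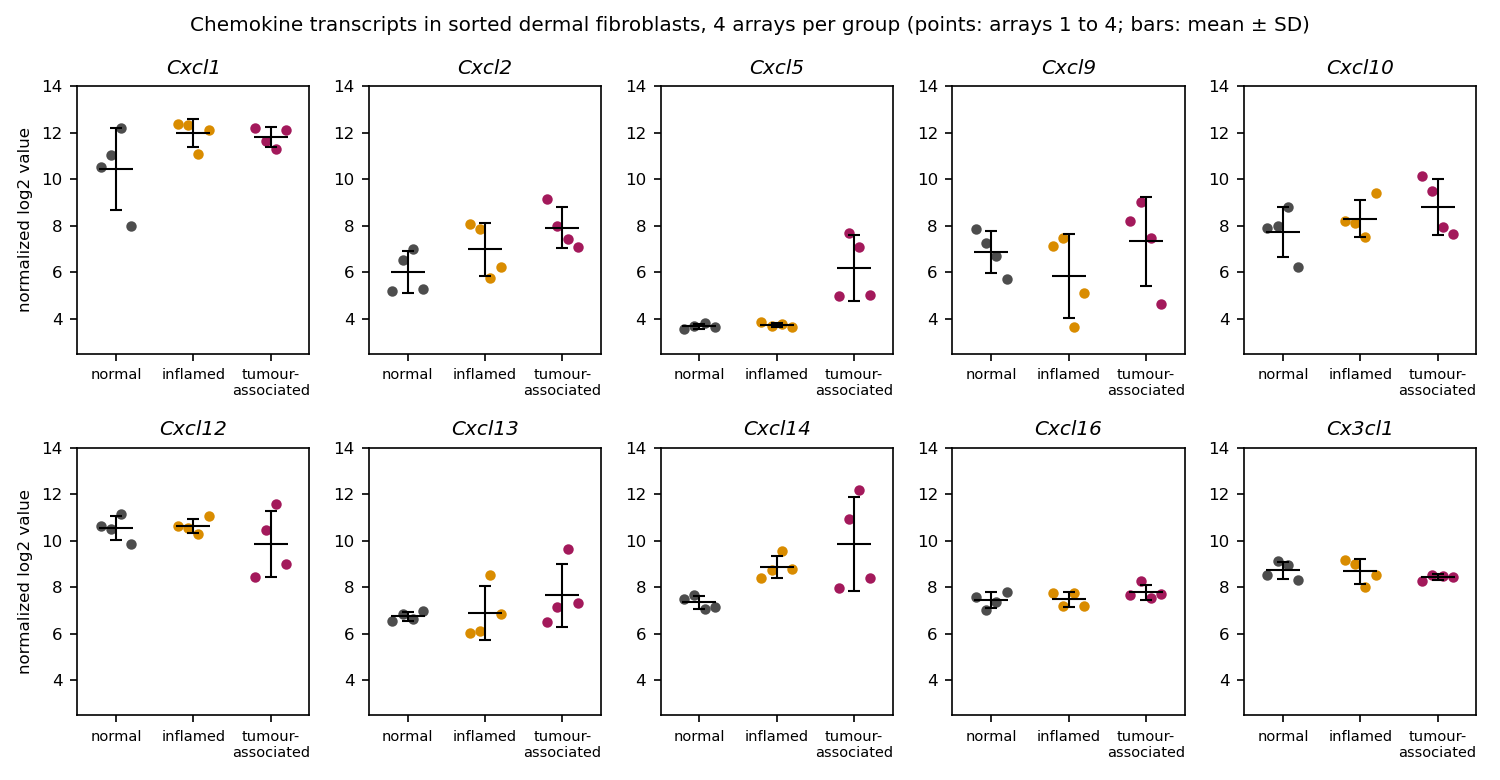
Normalized log2 value (vertical axis) of the 10 chemokine transcripts in normal, inflamed and tumour-associated fibroblasts, with 1 point for each array in order from 1 to 4 and bars for the mean ± SD. Cxcl5 stays between 3.57 and 3.84 in normal and inflamed arrays and lies between 4.97 and 7.67 in tumour-associated arrays, while Cxcl16 and Cx3cl1 keep close to one level.

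Among the Cxcr2 ligands, Cxcl5, which attracts neutrophils, was near the bottom of the measured range in normal and inflamed fibroblasts and rose in tumour-associated fibroblasts. Its log2 values were 3.57, 3.66, 3.81 and 3.62 in normal arrays 1 to 4 and 3.84, 3.69, 3.75 and 3.63 in inflamed arrays. In tumour-associated arrays 1 to 4 they were 4.97, 7.67, 7.09 and 5.00. All tumour-associated arrays lay above all others, with arrays 2 and 3 well above 1 and 4. The rise against normal skin was 2.51 ± 0.51 (SE, n = 4 arrays per group; limma adjusted p = 0.00878), a 5.71-fold difference. Against inflamed skin it was 2.45 ± 0.51 (limma adjusted p = 0.0147), while inflamed and normal skin differed by 0.06 with a 95% interval of -1.04 to 1.17. Cxcl5, Cxcl2 and Cxcl14 were the 3 of 10 members whose tumour-associated and normal arrays did not overlap, where 13.8% of all genes did not. Against inflamed skin Cxcl5 was the 1 of 10, where 21.1% of all genes did not overlap. Its normal and inflamed means fell among the lowest 40% of probe-set means (below 6.16), a range called dim here. The size of the rise therefore depends on the authors' background correction, which no source used here gives.

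The call of Cxcl5 against normal skin held with each of the 12 arrays left out in turn, at 2.02 to 2.92, and so did the call against inflamed skin, at 1.95 to 2.85. Adjusted for the spike level, the difference from inflamed skin was 3.60 and missed the threshold (limma adjusted p = 0.0534). Neutrophil markers also had a higher mean level in tumour-associated arrays. Of 6 listed, 4 were measured, and their mean level was 5.88 to 6.14 in normal, 5.80 to 6.20 in inflamed and 6.49 to 6.93 in tumour-associated arrays. Of these, S100a9, a calcium-binding protein of neutrophils, rose by 1.11 ± 0.24 against normal skin (limma adjusted p = 0.013), a call that ended with the Gapdh difference as a covariate. Mpo, a granule enzyme, differed by 0.94 ± 0.26 (limma adjusted p = 0.0383). The other 2 markers were not called. In tumour-associated arrays 1 to 4 the marker mean was 6.49, 6.84, 6.93 and 6.54, and S100a9 read 6.35, 7.41, 7.38 and 7.26. Both were lowest in array 1 and highest in arrays 2 and 3, as Cxcl5 was, while Mpo was highest in array 1 (7.31). In normal and inflamed arrays Mpo (5.07 to 6.11) was below the dim limit of 6.16, and S100a9 (5.68 to 6.35) was near it. Against normal skin the Mpo call ended in 8 of the 12 fits that left out an array. These left out normal 1, 2 or 3, inflamed 1, 2 or 4, or tumour-associated 1 (0.69) or 2. Mpo was also higher than in inflamed skin, by 1.43 ± 0.26 (limma adjusted p = 0.0065). This call held in all 12 fits, at 1.18 to 1.59. S100a9 was higher than in inflamed skin by 1.02 ± 0.24 (limma adjusted p = 0.0285), a call lost in 6 of the 12. Both calls against inflamed skin were lost after adjustment for the spike level (1.13 and 0.85), which did not overlap between these groups. The part of these cells in the Cxcl5 result was not tested.

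Over the 12 arrays, the genes whose log2 values followed Cxcl5 most closely were Npl, an enzyme of sialic acid breakdown (Pearson r = 0.98, Spearman rho = 0.82), Cbln1, a secreted protein of the C1q family (0.96 and 0.61), and Ptprm, a receptor tyrosine phosphatase (0.96 and 0.58). Without the 2 arrays farthest from the median of Cxcl5 the Pearson r was 0.85, 0.84 and 0.88. All 3 were also higher in tumour-associated than in normal arrays, by 1.18, 2.20 and 0.92 (limma adjusted p = 0.0244, 0.0104 and 0.00922). These correlations describe the same 12 libraries and rest on the distance between groups.

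Cxcl2, another neutrophil attractant, had log2 values of 5.17, 6.5, 7.00 and 5.28 in normal arrays 1 to 4. Inflamed arrays 1 to 4 gave 8.08, 7.83, 5.75 and 6.24, and tumour-associated arrays gave 9.12, 7.99, 7.43 and 7.08. Every tumour-associated array lay above every normal array, and the inflamed arrays overlapped both groups. The difference between tumour-associated and normal skin was 1.92 ± 0.61 (SE; limma adjusted p = 0.074, 95% interval 0.58 to 3.26) and did not pass the test. It passed with arrays shifted by ribosomal protein genes (2.19; limma adjusted p = 0.0134), with dim genes left out (1.92; limma adjusted p = 0.0485) and adjusted for the Gapdh difference (2.91; limma adjusted p = 0.0165). The means were in the order normal, inflamed and tumour-associated, with steps of 0.98 ± 0.61 and 0.93 ± 0.61 that were within the spread (limma adjusted p = 0.449 and 0.337). The normal mean of 5.99 ± 0.91 (SD) was dim. The Gapdh difference used as a covariate did not overlap between tumour-associated and normal arrays.

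Cxcl1, the third neutrophil attractant, was already strongly expressed in normal skin and varied most there. Its log2 values were 10.50, 11.04, 12.21 and 8.0 in normal arrays 1 to 4, 12.35, 12.31, 11.08 and 12.12 in inflamed arrays, and 12.20, 11.65, 11.30 and 12.10 in tumour-associated arrays. Normal array 3 matched the highest inflamed and tumour-associated arrays, and normal array 4 was the lowest of all. The difference was 1.53 ± 0.68 for inflamed (limma adjusted p = 0.309) and 1.37 ± 0.68 for tumour-associated against normal skin (limma adjusted p = 0.266), and neither passed. Without normal array 4 they were 0.71 and 0.56. The other 2 probe sets of Cxcl1 gave 2.08 and 1.82, and 1.55 and 1.63, in the same comparisons, also not called. Between tumour-associated and inflamed skin the difference was -0.15, with an interval of -1.65 to 1.34.

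**Figure D2:**
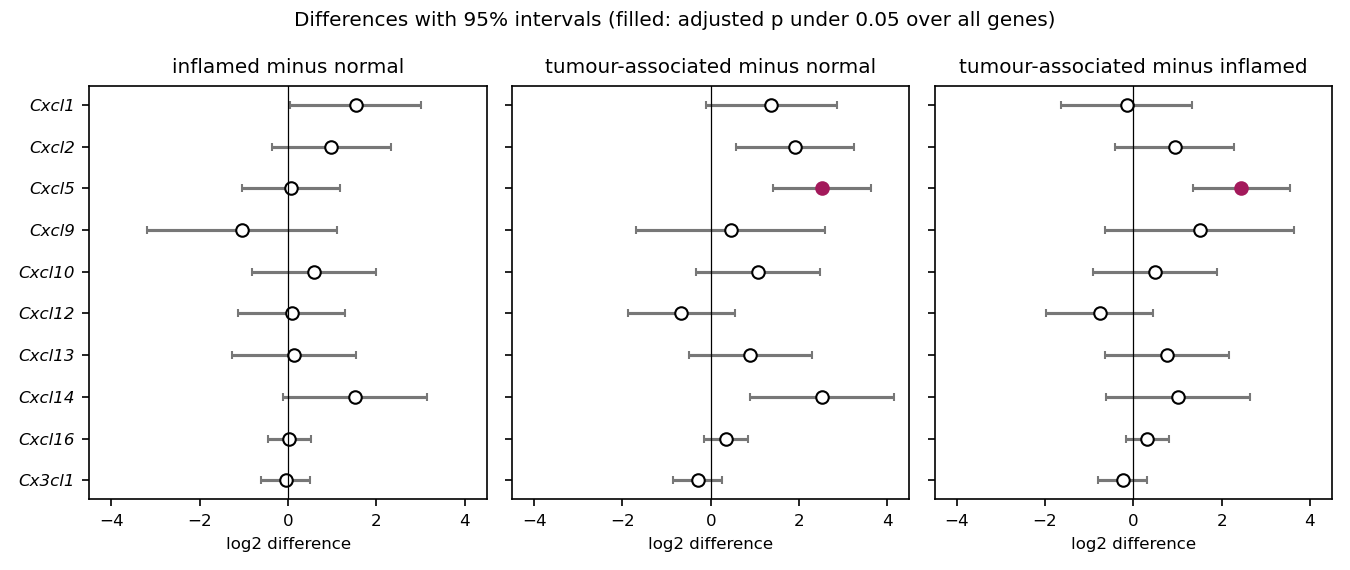
Log2 difference of each chemokine transcript (horizontal axis) with its 95% interval in the 3 comparisons, from limma. Filled points passed an adjusted p under 0.05 over all genes, which only Cxcl5 did, at 2.51 against normal and 2.45 against inflamed skin.

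Cxcl14, a chemokine of skin and other epithelia that attracts monocytes and dendritic cells, had the largest difference from normal skin among the members in tumour-associated fibroblasts, just past that of Cxcl5. Log2 values were 7.47, 7.68, 7.06 and 7.16 in normal arrays 1 to 4 and 8.39, 8.73, 9.53 and 8.79 in inflamed arrays. In tumour-associated arrays 1 to 4 they were 7.95, 10.91, 12.19 and 8.40. All inflamed and all tumour-associated arrays were above all normal arrays, and the tumour-associated arrays spanned 4.24 log2 units. On the probe sets used, Cxcl14 was the 1 member of 10 whose inflamed and normal arrays did not overlap, where 15.3% of all genes did not. On its second probe set these groups overlapped.

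The difference of Cxcl14 between tumour-associated and normal skin was 2.52 ± 0.75 (SE; limma adjusted p = 0.0549, 95% interval 0.89 to 4.15) and narrowly missed the threshold. It passed without tumour-associated array 1 (3.16; limma adjusted p = 0.0164) or 4 (3.01; limma adjusted p = 0.0278). A second Cxcl14 probe set gave 3.58 ± 0.75 and was called in the fit of all probe sets (limma adjusted p = 0.013). It read 7.32, 7.99, 5.54 and 5.80 in normal arrays and 9.71, 10.70, 11.99 and 8.56 in tumour-associated arrays. In inflamed arrays it read 8.26, 7.59, 9.71 and 8.37, which overlapped the normal arrays. Inflamed against normal skin differed by 1.52 ± 0.75 (limma adjusted p = 0.349), and tumour-associated against inflamed skin by 1.01 ± 0.75 (limma adjusted p = 0.395). The latter was 0.23 without tumour-associated array 3 and 1.64 without tumour-associated array 1. On the second probe set these were 1.82 and 1.76, neither called.

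Keratinocyte markers had a higher mean level on every array of both InvEE groups than on any normal array. Cxcl14 was likewise higher on the probe set used, but not on its second probe set in inflamed skin. Between tumour-associated and inflamed skin the markers' median difference had the opposite sign to that of Cxcl14. Their median differences were 1.68 in inflamed and 0.55 in tumour-associated against normal skin and -0.78 between tumour-associated and inflamed skin. The mean level of 8 markers was 6.37 to 6.72 in normal, 7.86 to 9.03 in inflamed and 6.87 to 8.37 in tumour-associated arrays. Krt15, a stem-cell keratin of the follicle bulge, rose by 1.89 ± 0.27 in inflamed skin (limma adjusted p = 0.0202), a call lost when array 1 or 2 of either group was left out. It stood at -0.27 in tumour-associated against normal skin and fell by 2.16 ± 0.27 from inflamed to tumour-associated skin (limma adjusted p = 0.000609), a call that held with every array left out in turn. Krt10, a keratin of differentiated layers (-0.21), and Epcam, an epithelial adhesion protein (-0.55), were not called in tumour-associated against normal skin. Krt14, a basal keratin, rose by 2.38 ± 0.58 in tumour-associated skin (limma adjusted p = 0.0228; 2.28 and not called without normal array 1). Dsp, a desmosome protein, was 3.11 ± 0.81 higher there (limma adjusted p = 0.0303), a call lost without normal array 2, 3 or 4 or tumour-associated array 3 or 4, at 2.35 to 3.89. In inflamed skin Krt14 and Dsp stood at 2.42 and 3.53 and were not called (limma adjusted p = 0.0926 and 0.0824). Cdh1, the epithelial cadherin, was dim in every group, with means of 4.61, 6.02 and 5.23. Within the inflamed group the marker mean was highest in array 1 (9.03) and Cxcl14 was lowest there (8.39). Within the tumour-associated group both were highest in array 3 and lowest in array 1. These Cxcl14 readings are those of the probe set used. On its second probe set Cxcl14 was lowest in inflamed array 2 (7.59) and in tumour-associated array 4 (8.56). That probe set was highest in array 3 of both groups. The part of keratinocyte RNA in the Cxcl14 values was not tested.

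**Figure D3:**
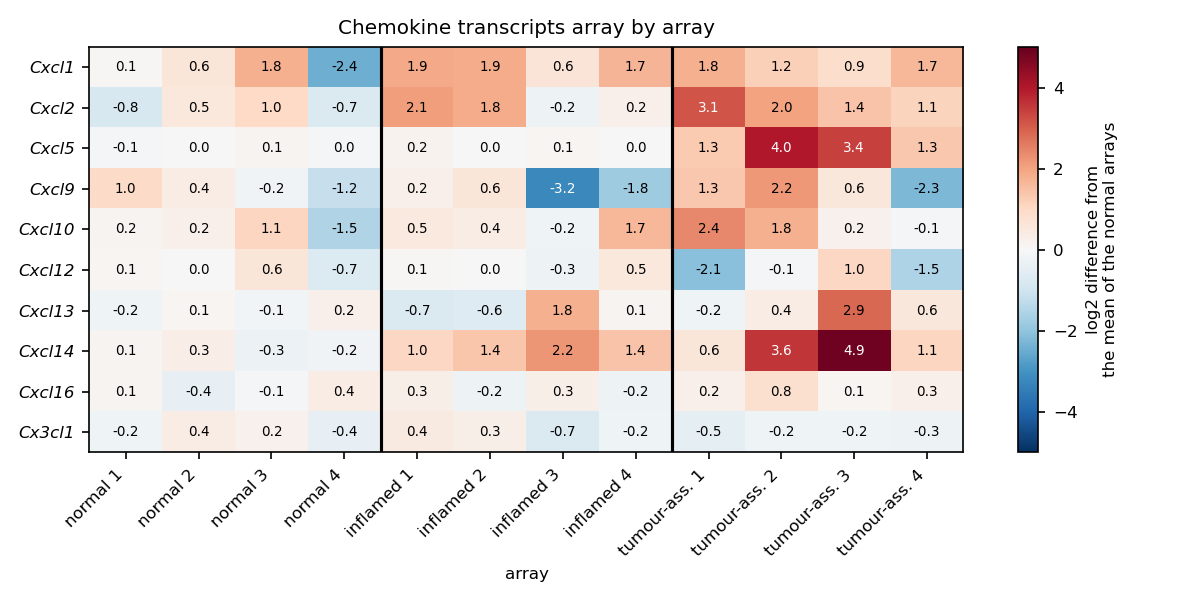
Log2 difference of each of the 12 arrays from the mean of the normal arrays (colour and printed value), with members in rows and arrays in columns. Tumour-associated arrays 2 and 3 stand out in Cxcl5 and Cxcl14 (4.0 and 3.4, and 3.6 and 4.9), normal array 4 is low in Cxcl1 (-2.4), and inflamed array 3 is low in Cxcl9 (-3.2).

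The tumour-associated arrays were not alike in several of these genes. In 4 of the 10 members (Cxcl5, Cxcl12, Cxcl14 and Cx3cl1) arrays 2 and 3 both lay above arrays 1 and 4. In Cx3cl1 these arrays spanned only 0.25 log2 units. Array 4 was highest in none of the 10, and array 1 was lowest in 5. These counts were not planned in advance, and the matching shares over all genes were not worked out. Of the 10 members, 8 had a pooled SD within groups at or above the 94.2 percentile of all genes, from 0.81 for Cxcl5 to 1.60 for Cxcl9, where the median gene had 0.33. Cxcl16 (0.32) and Cx3cl1 (0.38) were near that median.

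Cxcl9, an interferon-induced ligand of Cxcr3 on T cells, varied most. It read 7.83, 7.25, 6.69 and 5.72 in normal arrays 1 to 4, 7.11, 7.47, 3.64 and 5.09 in inflamed arrays, and 8.21, 9.03, 7.45 and 4.61 in tumour-associated arrays. The groups overlapped throughout, and no comparison passed (-1.05 ± 0.98 for inflamed and 0.45 ± 0.98 for tumour-associated skin when set against normal skin, and 1.5 ± 0.98 between those groups). A second, dimmer probe set read 5.25 to 5.60 in normal and 5.88 to 6.88 in tumour-associated arrays, with no overlap. It was called in the fit of all probe sets at 0.87 ± 0.24 (limma adjusted p = 0.0458). The 2 probe sets thus gave different calls. With the 3′ to 5′ difference of Gapdh as a covariate, the probe set used was called too. It stood at 2.65 against normal (limma adjusted p = 0.0162) and 2.99 against inflamed skin (limma adjusted p = 0.00585). Without the covariate these were 0.45 and 1.5, and the Gapdh difference did not overlap between normal and tumour-associated arrays.

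Cxcl10, also an interferon-induced ligand of Cxcr3, had log2 values of 7.88, 7.97, 8.81 and 6.22 in normal arrays 1 to 4. Inflamed arrays gave 8.19, 8.10, 7.51 and 9.39, and tumour-associated arrays 10.14, 9.49, 7.93 and 7.62. All groups overlapped, and tumour-associated arrays 1 and 2 were the highest of all arrays. The means of 7.72 ± 1.08, 8.30 ± 0.79 and 8.79 ± 1.21 (SD) did not differ beyond this spread (0.58, 1.07 and 0.49 in the 3 comparisons; limma adjusted p = 0.667, 0.369 and 0.637). Of 12 measured genes of interferon signalling, 0 passed in inflamed against normal skin by limma, 2 rose in tumour-associated against normal skin and 1 rose against inflamed skin. Ifit1, an interferon-induced antiviral protein, rose by 2.36 ± 0.28 against normal and by 2.85 ± 0.28 against inflamed skin (limma adjusted p = 0.000258 and 0.000126). Irf9, a subunit of the factor that carries type I interferon signals, rose by 0.95 ± 0.20 against normal skin (limma adjusted p = 0.0113). The median of the list was -0.05 against normal skin.

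Cxcl12, which holds Cxcr4-bearing cells in stroma, was strong in all groups. It read 10.64, 10.50, 11.15 and 9.85 in normal arrays 1 to 4, 10.61, 10.55, 10.28 and 11.05 in inflamed arrays, and 8.44, 10.47, 11.57 and 8.99 in tumour-associated arrays. Tumour-associated array 3 was the highest and array 1 the lowest of all 12. No comparison passed. The differences were 0.09 ± 0.56 for inflamed and -0.67 ± 0.56 for tumour-associated against normal skin (limma adjusted p = 0.948 and 0.543), and the second had an interval of -1.88 to 0.54. The other 2 probe sets gave 0.79 and 0.26 for tumour-associated against normal skin, neither called, so the sign is not settled.

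Cxcl13, which attracts B cells, was high on single arrays. Its log2 values were 6.54, 6.83, 6.61 and 6.99 in normal arrays, 6.03, 6.10, 8.51 and 6.86 in inflamed arrays and 6.52, 7.13, 9.62 and 7.30 in tumour-associated arrays. Inflamed array 3 and tumour-associated array 3 were above all others of their groups. The second probe set also put these arrays highest in their groups, at 6.23 and 7.44. Group differences of 0.13, 0.90 and 0.76 did not pass (limma adjusted p = 0.93, 0.464 and 0.45), and without tumour-associated array 3 the difference from normal skin was 0.24. Of 7 measured genes of lymphotoxin and noncanonical NF-kappaB signalling, known inducers of Cxcl13, 0 were called by limma in any comparison. Those with the smallest p were Relb (1.01 between tumour-associated and inflamed skin, limma adjusted p = 0.133) and Nfkb2 (-0.45, limma adjusted p = 0.158), both subunits of that pathway's factors.

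The membrane-bound members had small differences from normal skin and a narrow spread. Cxcl16, the ligand of Cxcr6, read 7.57, 7.02, 7.36 and 7.80 in normal, 7.74, 7.19, 7.74 and 7.20 in inflamed, and 7.67, 8.25, 7.52 and 7.69 in tumour-associated arrays. Inflamed and normal skin differed by 0.03 (95% interval -0.46 to 0.52), and tumour-associated and normal skin by 0.35 (-0.14 to 0.84). A second probe set gave 0.47 and 0.71, not called. Cx3cl1, or fractalkine, read 8.51, 9.11, 8.96 and 8.32 in normal, 9.16, 9.0, 8.0 and 8.51 in inflamed, and 8.27, 8.52, 8.49 and 8.45 in tumour-associated arrays. Its differences were -0.05 (-0.61 to 0.50) and -0.29 (-0.84 to 0.26). The other 3 probe sets of Cx3cl1 lay between -0.34 and 0.15 in tumour-associated against normal skin. These intervals allow changes of under 1 log2 unit in either gene, and do not show that the levels are equal.

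**Figure D4:**
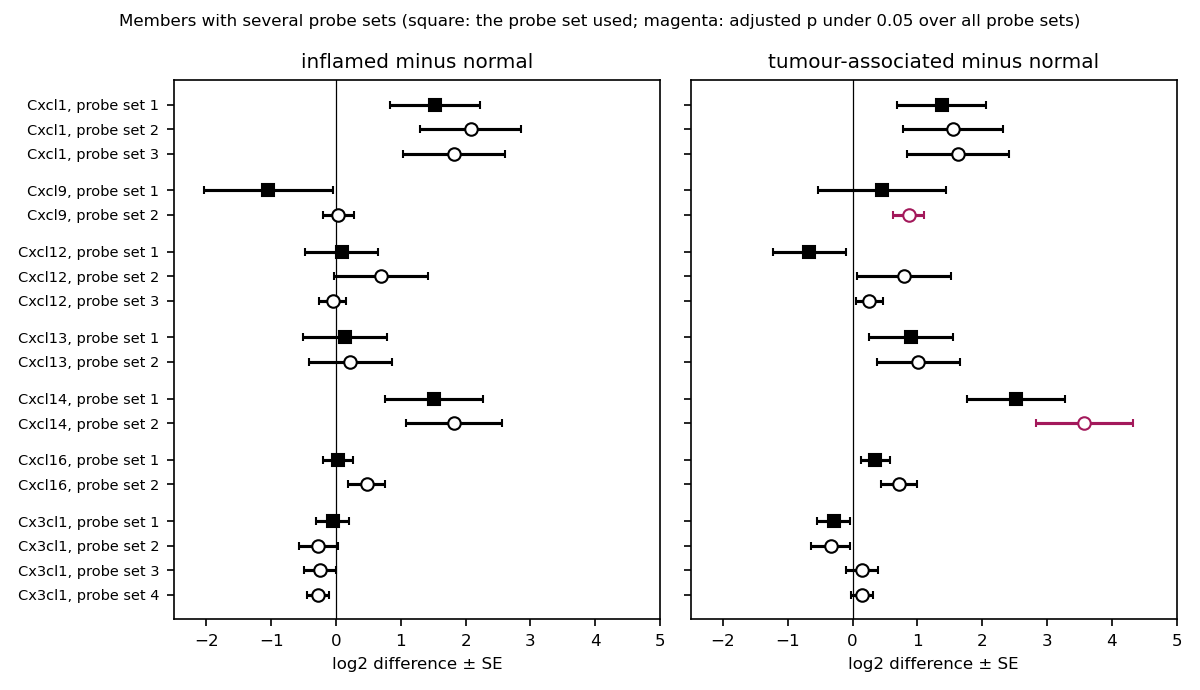
Log2 difference ± SE (horizontal axis) on every probe set of the 7 members that have several, in inflamed and tumour-associated against normal skin. Squares mark the probe set used, and magenta marks an adjusted p under 0.05 over all probe sets, which the second probe sets of Cxcl14 (3.58) and Cxcl9 (0.87) reached in tumour-associated skin.

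The other CXC chemokine genes on the array, Cxcl3, Pf4, Ppbp, Cxcl11, Cxcl15 and Cxcl17, gave 0 calls by limma in any comparison, and 5 of the 6 were dim in every group. The smallest p were those of Ppbp, a platelet chemokine (0.55 between tumour-associated and inflamed skin, limma adjusted p = 0.0975), and Pf4, platelet factor 4 (-1.03 in inflamed against normal skin, limma adjusted p = 0.322).

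On the receptor side, 10 of 11 listed genes were measured. In inflamed against normal skin 1 fell, in tumour-associated against normal skin 1 fell, and between tumour-associated and inflamed skin 2 were lower, with none higher. Ackr1, an atypical receptor that binds and transports chemokines without G protein signalling, was 10.70, 10.75, 10.20 and 10.84 in normal arrays. It was 8.87, 8.54, 9.26 and 9.76 in inflamed arrays and 7.49, 8.49, 7.74 and 8.26 in tumour-associated arrays. The 3 groups did not overlap. Its log2 value fell by 2.63 ± 0.29 from normal to tumour-associated skin (limma adjusted p = 0.000176), a call that held with every array left out in turn. From normal to inflamed skin it fell by 1.51 ± 0.29 (limma adjusted p = 0.0446). That call ended without normal array 1, 2 or 4, inflamed array 1, 2 or 3, or tumour-associated array 2 or 3, with a range of -1.73 to -1.32 over the 12 fits. The step of -1.11 ± 0.29 between tumour-associated and inflamed skin (limma adjusted p = 0.0382) was lost without normal array 1 or 2, inflamed array 1, 3 or 4, or tumour-associated array 1 or 3. Pericyte and smooth muscle markers also had a lower mean level in both InvEE groups than in normal skin. Their median differences were -0.24 in inflamed and -0.65 in tumour-associated against normal skin and -0.14 between tumour-associated and inflamed skin. The mean over 7 of them was 8.30 to 8.51 in normal, 7.68 to 7.99 in inflamed and 7.15 to 7.69 in tumour-associated arrays, and of the 7, 1 was called lower in inflamed and 2 in tumour-associated skin than in normal skin, and 3 in tumour-associated than in inflamed skin. Kcnj8, a potassium channel of pericytes, stepped down from 11.08 to 9.22 and 7.07. It fell by 4.01 ± 0.27 from normal to tumour-associated skin (limma adjusted p = 4.17e-06), a call that held with every array left out in turn. Abcc9, the partner subunit of that channel, fell by 2.12 ± 0.58 (limma adjusted p = 0.0391), a call lost in 7 of the 12 fits that left out an array. Over 6 endothelial markers the mean was 5.46 to 5.79 in normal, 5.54 to 6.32 in inflamed and 5.52 to 6.39 in tumour-associated arrays. None of these was called in any comparison. The part of pericytes, smooth muscle and endothelial cells in the receptor values was not tested.

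Cxcr4, the receptor of Cxcl12, was high in inflamed fibroblasts. It read 9.10, 9.23, 9.71 and 5.94 in normal arrays, 11.78, 11.88, 11.38 and 10.88 in inflamed arrays, and 5.00, 8.21, 9.24 and 6.08 in tumour-associated arrays. All inflamed arrays lay above all others. From inflamed to tumour-associated skin the log2 value fell by 4.35 ± 0.93 (limma adjusted p = 0.0171). That call was lost without inflamed array 1 or 2 (limma adjusted p = 0.0561 and 0.0553) and after adjustment for the spike level (-1.03). The difference of 2.98 ± 0.93 between inflamed and normal skin did not pass (limma adjusted p = 0.171). Ackr3, which scavenges Cxcl12, stood at -1.21 in inflamed and -1.30 in tumour-associated against normal skin, and Ackr2 at -0.45 and -2.44, none called. Cx3cr1, the receptor of Cx3cl1, stood at 1.37 in tumour-associated skin (limma adjusted p = 0.071).

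**Figure D5:**
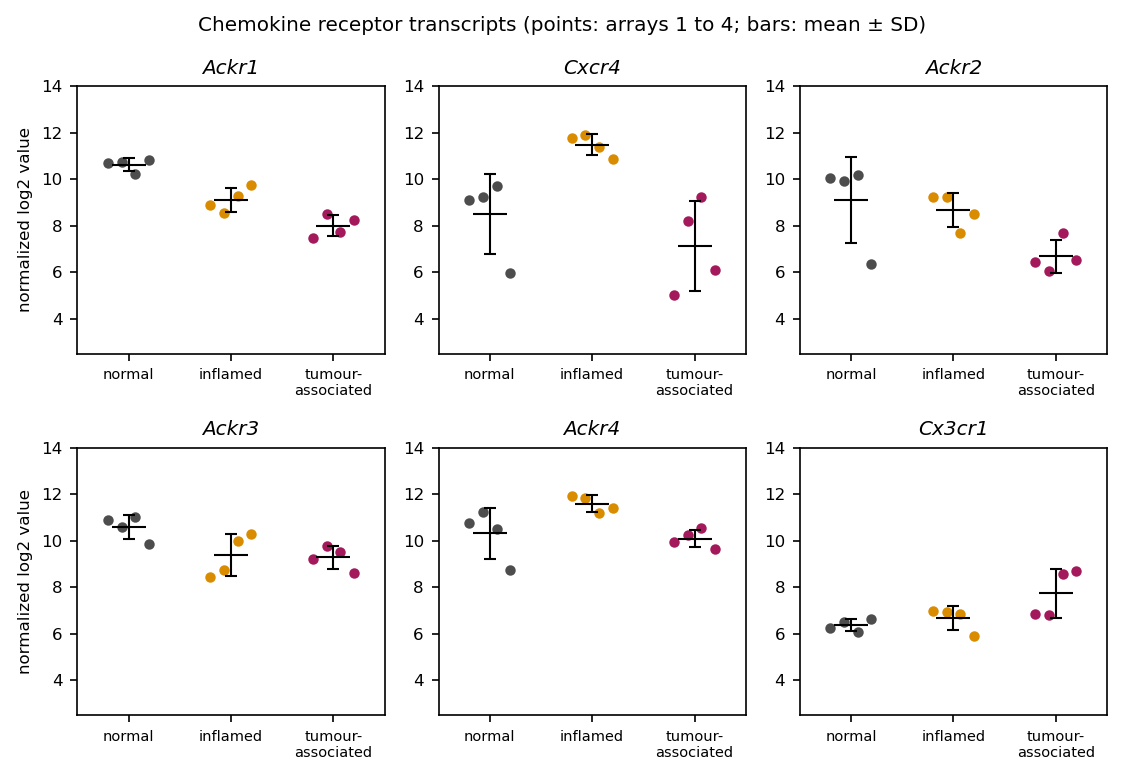
Normalized log2 value (vertical axis) of 6 chemokine receptor transcripts in normal, inflamed and tumour-associated fibroblasts, with 1 point for each array and bars for the mean ± SD. Ackr1 steps down from 10.62 to 9.11 and 7.99, and the 4 inflamed arrays of Cxcr4 (10.88 to 11.88) lie above all others.

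Of 6 proteases that shed or trim chemokines, 0 were called by limma in inflamed against normal skin, 1 rose and 1 fell in tumour-associated against normal skin, and 2 rose against inflamed skin. Mmp9, a gelatinase, rose by 1.75 ± 0.27 against normal and 1.95 ± 0.27 against inflamed skin (limma adjusted p = 0.00181 and 0.0015), and its second probe set gave 3.88 and 3.97, both called. Dpp4, a dipeptidyl peptidase that trims and inactivates Cxcl10 and Cxcl12, fell by 1.98 ± 0.46 against normal skin (limma adjusted p = 0.0187). Of its other 3 probe sets, which ran from -1.70 to -0.93, 1 was called as well. Mmp14, a membrane-anchored protease, was 1.02 ± 0.17 higher than in inflamed skin (limma adjusted p = 0.00462). Its other probe sets gave 1.05, called in the fit of all probe sets, and 0.52, not called. The calls of Mmp9 and Mmp14 against inflamed skin ended with the spike level as a covariate, and that of Dpp4 with the Gapdh difference (-1.08). Adam10 and Adam17, the sheddases of Cx3cl1 and Cxcl16, were not called (0.06 and 0.34 against normal skin).

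Of 14 measured genes of interleukin 1, interleukin 17 and TNF signalling to NF-kappaB, the path that induces Cxcr2 ligands, 0 were called by limma in inflamed against normal skin. In tumour-associated against normal skin 1 rose and 1 fell. Traf3ip2, the adaptor of the interleukin 17 receptor, fell by 1.46 ± 0.27 (limma adjusted p = 0.00533), a call lost with the Gapdh difference as a covariate. Il17rc, a chain of that receptor, was 0.83 ± 0.23 higher (limma adjusted p = 0.0405). The Il17rc call held in 2 of the 12 fits that left out an array (without normal array 1 or tumour-associated array 3), and its second probe set gave -0.01. It was also higher than in inflamed skin, by 1.01 ± 0.23 (limma adjusted p = 0.0236), a call lost without inflamed array 1, 2 or 4 or tumour-associated array 2.

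Some immediate early genes, which respond to tissue dissociation, fell in tumour-associated skin. Of 13 immediate early and heat shock genes, 0 were called by limma in inflamed against normal skin, 6 fell against normal and 7 against inflamed skin, with none higher. The heat shock genes Hspa1a and Hspa1b were called in no comparison (-0.63 and -0.36 against normal skin). Fos, Fosb and Jun, subunits of the AP-1 factor, fell by 1.36 ± 0.17, 1.53 ± 0.30 and 1.01 ± 0.16 against normal skin (limma adjusted p = 0.000348, 0.00796 and 0.00168). These 3 calls held with every array left out in turn, and that of Fosb ended with the Gapdh difference as a covariate. Atf3, a stress-induced factor, and Junb, a further AP-1 subunit, stood at -2.20 and -1.10, and Zfp36, which destabilizes cytokine messages, at -0.82. The calls of these 3 were each lost in 5 to 9 of the 12 fits that left out an array. Egr1, an early transcription factor, fell by 0.93 from inflamed to tumour-associated skin (limma adjusted p = 0.0404; lost in 9 of the 12 fits). Socs3, a feedback inhibitor of cytokine signals, fell by 2.08 in the same comparison (limma adjusted p = 0.0243; lost without inflamed array 1, 2 or 4 or tumour-associated array 1 or 2). The part of dissociation in the chemokine values was not tested. Macrophages are a further source of chemokines. The mean over 8 macrophage markers was 6.56 to 7.05 in normal, 6.28 to 6.72 in inflamed and 6.49 to 6.93 in tumour-associated arrays, and Ptprc, Adgre1 and C1qa were dim in every group. Csf1r, the receptor of a macrophage growth factor, was well expressed, with normal, inflamed and tumour-associated means of 11.77, 10.49 and 9.62. It fell by 2.14 ± 0.45 from normal to tumour-associated skin (limma adjusted p = 0.0102), a call that held with every array left out in turn. This was the only call among the 8 markers in any comparison. Their median differences were -0.46 in inflamed and -0.01 in tumour-associated against normal skin, and 0.32 between tumour-associated and inflamed skin. Lyz2, a lysozyme of myeloid cells, stood at 8.24, 7.26 and 7.61 and was not called. The part of macrophages in the chemokine values was not tested.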

How the data were processed

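RNA of sorted fibroblasts was amplified, labelled with biotin and hybridised to 1-colour Affymetrix arrays, per the labels' protocols. The deposited values were taken as log2 because they ran from 2.08 to 14.955. No source used here gives the authors' background correction or normalization, and limma is named, with no version, in the submitters' processing notes. Quartiles differed between arrays by up to 0.284, above the limit of 0.1, so arrays were quantile normalized. Of 45101 probe sets, 34945 had 1 symbol, 932 several and 9160 none, and 64 were controls. All 18193 genes were fitted over all 12 arrays with limma 3.58.1 (lmFit, eBayes) in R 4.3.3. P-values were adjusted by Benjamini-Hochberg, with a threshold of 0.05. The number of arrays limits the precision. Scripts were tested on simulated data.

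The named genes are the members, list genes called in any comparison (the 6 largest differences where there were more), otherwise the 2 with the smallest p, and the 3 genes most like each called member. Ackr2, Ackr3, Cx3cr1, Adam10, Adam17, Egr1, Zfp36, Hspa1a, Hspa1b and the markers fall outside this rule and were named after their values were seen. The members and lists were chosen with earlier results of these data known. Alternatives covered normalization, probe-set choice, filters, covariates, array weights and left-out arrays.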

Additional observations from a re-analysis of the deposited data

How the results depend on the processing

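The call of Cxcl5 against normal skin held under every alternative that fitted it, at 2.02 to 3.02. The 0 members called in inflamed against normal skin became 1 (Cxcl14) when the 8 arrays alone were fitted. The 1 called in tumour-associated against normal skin became 3 with arrays shifted by ribosomal protein genes (Cxcl2 and Cxcl14 added). It also became 3 with the Gapdh difference, which did not overlap between these groups, as a covariate (Cxcl2 and Cxcl9 added). It became 2 (Cxcl5 and Cxcl14) with the mean of probe sets, with the spike covariate and with array weights. With dim genes left out it was 2 as well, but these were Cxcl2 and Cxcl14, since Cxcl5 is then not fitted. It was 1 to 2 with an array left out. The 1 called between tumour-associated and inflamed skin became 3 with the ribosomal shift, 2 with the Gapdh covariate, and 0 with dim genes left out (Cxcl5 is then not fitted), the spike covariate or a threshold of 0.01. It stayed at 1 with each array left out. The ribosomal shift moved the median of all genes by -0.19, 0.27 and 0.46 in the 3 comparisons and the share of higher calls from 48.5%, 50.3% and 54.7% to 25.2%, 75.3% and 94.9%. Array weights gave 839 calls in inflamed against normal skin, against 97, and the spike covariate gave 0. The spike level did not overlap between these groups.

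Differences that changed sign were called in neither setting, and the cause was not tested. In inflamed against normal skin the ribosomal shift gave -0.13 for Cxcl5, -0.11 for Cxcl12, -0.060 for Cxcl13 and -0.16 for Cxcl16. The spike covariate gave -0.91 for Cxcl5, -0.88 for Cxcl10, -1.43 for Cxcl12, -0.55 for Cxcl13 and -0.014 for Cxcl14. Deposited values gave -0.10 for Cxcl5, array weights -0.023 for Cxcl12 and -0.20 for Cxcl13, and the Gapdh covariate -0.087 for Cxcl13 and 0.068 for Cx3cl1. Leaving out both arrays 4 (normal and tumour-associated), an alternative chosen after seeing the data, gave -0.14 for Cxcl12. With 1 array left out the range was -0.14 to 0.29 for Cxcl12, -0.41 to 0.42 for Cxcl13, -0.11 to 0.15 for Cxcl16 and -0.22 to 0.17 for Cx3cl1. In tumour-associated against normal skin it was -0.11 to 1.36 for Cxcl9. There the mean of probe sets gave 0.13 for Cxcl12 and the Gapdh covariate 0.088 for Cx3cl1. Between tumour-associated and inflamed skin Cxcl1 was 0.31 with the ribosomal shift, 1.54 with the spike and 0.31 with the Gapdh covariate, and -0.45 to 0.016 with an array left out. The spike covariate gave 1.05 for Cxcl12, -0.0059 for Cxcl16 and 0.022 for Cx3cl1. Cx3cl1 was 0.23 with the ribosomal shift, 0.13 with the mean of probe sets and 0.020 with the Gapdh covariate.

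Nothing in the labels says that replicate numbers pair the arrays, and the correlations do not settle it. Same-numbered arrays' deviations correlated at -0.0943 to 0.177, and 6 of 12 arrays correlated best with their own number. How many would do so at random was not worked out. With the replicate block 0, 1 and 1 members were called, as without it. Of the other genes named, the block ended the calls of Ackr1 in inflamed skin (limma adjusted p = 0.0576), of Il17rc, Junb, Atf3, Mpo and Krt14 in tumour-associated against normal skin, and of Egr1, Socs3 and S100a9 between tumour-associated and inflamed skin.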
